A study of Sus scrofa with 10 samples.

Results

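The transcripts of 9 regulators of cardiac energy metabolism were followed in the nuclear RNA of cardiomyocytes sorted from minipig (Sus scrofa) hearts. They were the PGC1 coactivators PPARGC1A and PPARGC1B, the nuclear receptors PPARA, PPARD, ESRRA, ESRRB and ESRRG, and the transcription factors NRF1 and TFAM. The genes were taken by name, and each of the 9 matched 1 of the 35670 gene identifiers in the deposited tables. They and the gene lists read beside them were chosen with earlier results of these data known. All 10 libraries carried the genotype label WT. Libraries 1 to 5 were controls given PBS (phosphate-buffered saline). Libraries 6 and 7 came from animals given deoxycorticosterone acetate (DOCA), a steroid that acts on the mineralocorticoid receptor, and libraries 8 to 10 from DOCA together with JK07, an agonist of the neuregulin receptor ERBB4 per the series title. Doses, times, ages and the heart chamber are not given in the sources used here, and the labels leave unsaid whether each library stands for its own animal, so the spread behind every p-value below may be technical.

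PGC1 coactivators do not bind DNA themselves but dock on nuclear receptors and recruit the machinery that opens chromatin and starts transcription. The fatty acid-sensing PPARs pair with RXR receptors on genes of fatty acid uptake and oxidation, and the ERRs (ESRRA, ESRRB and ESRRG), receptors without a known natural ligand, sit on genes of the tricarboxylic acid cycle and the respiratory chain. NRF1 drives nuclear genes of the respiratory chain and is a known activator of TFAM, which packages mitochondrial DNA and starts its transcription. The heart draws most of its energy from fatty acids, and this network sets how much of that capacity a cardiomyocyte has.

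The deposited tables gave TPM, a transcript level per length and library size, and estimated counts. From the counts came CPM, the count relative to the library total after edgeR's TMM scaling. Between 77.6% and 90.8% of each library's counts lay on ribosomal RNA scaffolds. Outside them DOCA libraries 6 and 7 held 6.87 and 3.30 M counts (M, mega), while the controls held between 8.67 and 13.9 M and the JK07 libraries between 9.03 and 12.9 M. Among 11083 genes averaging at least 100 counts, library 6 lists 17.2% at 0 and library 7 lists 21.4%, while the remaining 8 list 0.505% to 2.34%. Low depth, any other difference of libraries 6 and 7, and DOCA treatment therefore cannot be told apart in this series. The TMM factor of library 6 was 0.511, so its CPM values stand high relative to its TPM values. The 9 measured cardiomyocyte markers were above 0 in every library and summed to 4156 to 5119 CPM in controls, 3292 to 5719 in DOCA and 5060 to 8078 with JK07. One of them, PLN, a brake on the calcium pump, fell by 3.37 on the log2 scale in DOCA against control and was 2.64 higher with JK07 than in DOCA (edgeR, adjusted p = 0.000471 and 0.00242).

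Markers of other cell types were read beside it. The 8 smooth muscle and pericyte markers summed to 77.7 to 79.0 CPM in DOCA, under the 90.4 to 142 of the controls and the 108 to 135 with JK07, and 2 of them, ABCC9 and RGS5, fell in DOCA and were higher with JK07. POSTN did likewise, but the median log2 change of the 9 fibroblast markers went the other way. It was 0.20 in DOCA against control and -0.19 in DOCA plus JK07 against DOCA. The summed ranges overlapped between groups for the fibroblast (877 to 2796 CPM in controls, 966 to 3014 in DOCA, 827 to 2122 with JK07), endothelial (124 to 262, 123 to 196, 116 to 179) and macrophage markers (41.9 to 142 in controls and 63.4 to 69.6 in DOCA, with JK07 from 29.5 upward past the DOCA range). EMCN of the 8 endothelial and LYVE1 of the 8 macrophage markers were at 0 in both DOCA libraries. The part of these markers in the results below was not tested.

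None of the 9 regulators passed the test in any comparison of the groups. The test was edgeR's quasi-likelihood F test with p-values adjusted over all 17251 genes tested, at a threshold of 0.05, and all 9 genes passed the filter on low counts. In DOCA against control 0 of 9 passed, while 25.5% of all genes did (5.73% higher and 19.7% lower in DOCA). Between DOCA plus JK07 and DOCA 0 of 9 passed, against 17.0% of all genes (14.7% higher and 2.25% lower with JK07). Between DOCA plus JK07 and control 0 of 9 and 0% of all genes passed. At an unadjusted p under 0.05 the regulators numbered 2, 1 and 1 in these comparisons, against 36.3%, 30.3% and 4.65% of all genes. DESeq2 counted 1, 1 and 0 regulators as changed, and limma voom with library quality weights counted 0 in each comparison. Over all genes DESeq2 counted 6272, 5045 and 115 in the same order, and limma voom only 161, 5 and 8. The regulators' median log2 change was 0.31 in DOCA against control, where the median over all genes was -0.63. It was 0.09 in DOCA plus JK07 against DOCA, where all genes had 0.55. Many genes are listed at 0 in a whole group, 4757 and 4497 in these 2 comparisons, and with them placed at their bound the all-gene median is 0 in both. The plot of log2 changes shows each regulator beside these medians.

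**Figure D1:**
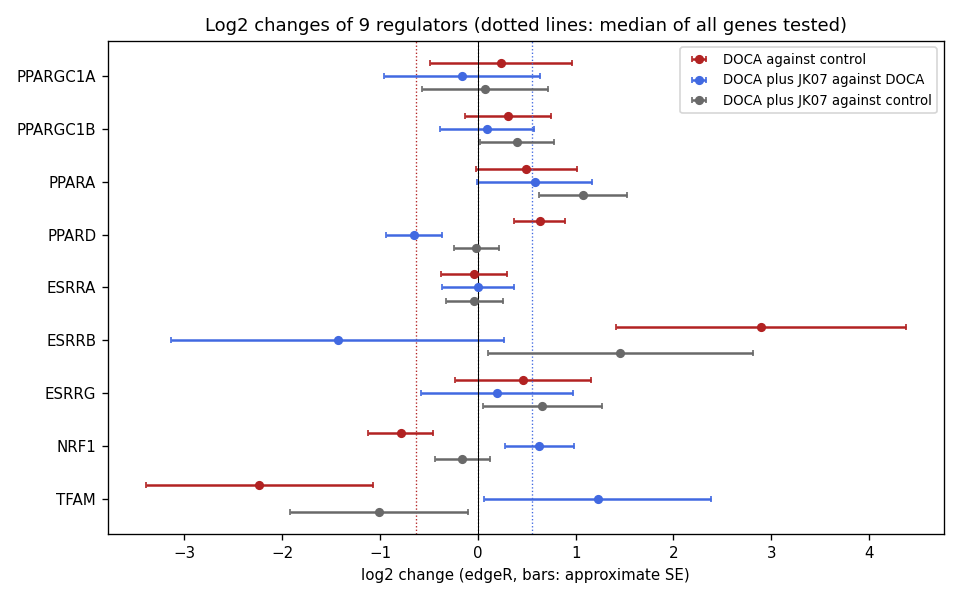
Log2 changes (x axis, edgeR) of the 9 regulators (y axis) in the 3 comparisons, 1 colour each, with approximate standard errors as bars and the median of all 17251 genes tested as a dotted line of the same colour. ESRRB at 2.89 and TFAM at -2.23 in DOCA against control lie farthest from 0 and carry wide bars, and none of the 27 values passed the test at an adjusted p under 0.05.

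In the controls the coactivator PPARGC1A was by far the most abundant of the 9, at rank 203 among 23987 named identifiers by mean TPM. NRF1 (rank 2120), PPARA (2182) and ESRRA (3161) followed. PPARGC1B (6631), TFAM (7675), ESRRG (7700) and PPARD (7988) lay lower, and ESRRB (11654) was the lowest. In TPM the control means were 24.8 ± 16.9 for PPARGC1A, 4.59 ± 0.92 for NRF1, 4.47 ± 0.69 for PPARA and 3.43 ± 0.96 for ESRRA (SD, n = 5). They were 1.63 ± 0.47 for PPARGC1B, 1.31 ± 0.46 for TFAM, 1.30 ± 1.00 for ESRRG, 1.22 ± 0.22 for PPARD and 0.28 ± 0.27 for ESRRB (SD, n = 5). In this order NRF1, PPARA and ESRRA differ by less than their SDs combined, as do PPARGC1B, TFAM, ESRRG and PPARD. The panels of TPM by library show all 90 values.

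**Figure D2:**
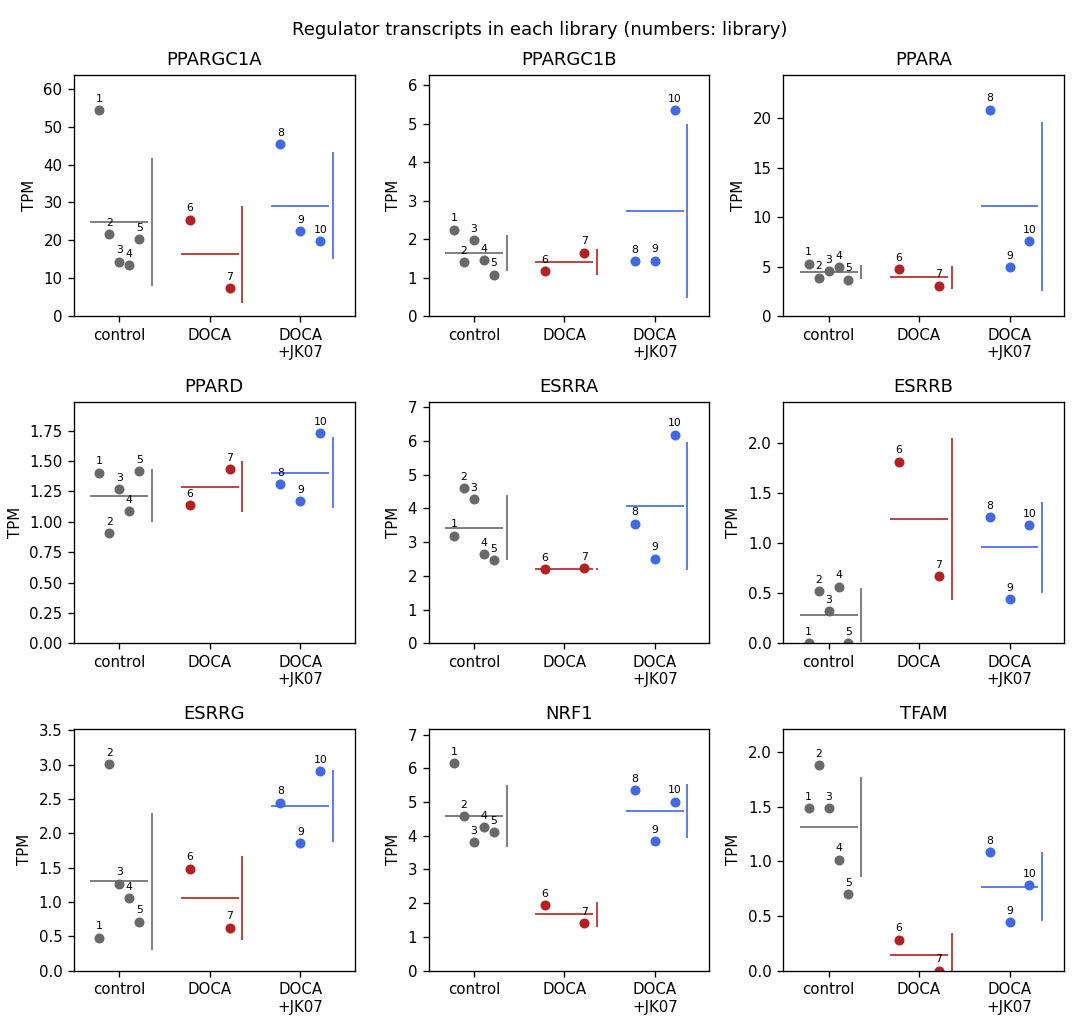
TPM (y axis, linear from 0, own scale per panel) of each regulator in the 10 libraries, grouped by treatment (x axis) and numbered. Horizontal lines mark group means and vertical lines 1 SD. NRF1 at 1.40 and 1.93 and TFAM at 0 and 0.28 in the DOCA libraries lie below every control, while PPARGC1A in control library 1 (54.3) and PPARA in library 8 (20.9) stand far above the rest of their groups.

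PPARGC1A encodes PGC1-alpha, the inducible coactivator of mitochondrial biogenesis. The annotated gene (ENSSSCG00000029275, Sscrofa11.1, chromosome 8 from 17841844 to 17946992, minus strand) spans 105 kb, which is 15.3% of the 686 kb RefSeq span of the same symbol. Its TPM in control libraries 1 to 5 was 54.3, 21.7, 14.3, 13.5 and 20.3. The DOCA libraries 6 and 7 had 25.4 and 7.34 TPM, and the JK07 libraries 8 to 10 had 45.3, 22.4 and 19.8. The 3 groups overlap, with library 1 the highest of all and library 7 the lowest. The log2 change in CPM was 0.23 ± 0.73 (SE) in DOCA against control (edgeR, adjusted p = 0.843), with an approximate 95% interval from -1.19 to 1.66. The DOCA libraries decide its sign: without library 6 it was -1.62 and without library 7 it was 1.01, and neither passed the test.

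The level of PPARGC1A also depends on which deposited value is read. The same tables list a coverage value per gene, which was brought to TPM units in each library (scaled coverage) and which can be compared between libraries but not between genes. Scaled coverage of PPARGC1A was 6.93, 6.99, 4.65, 4.55 and 5.57 in the controls, so library 1 was no longer apart from library 2. It was 9.75 and 3.85 in DOCA and 17.7, 5.48 and 5.87 with JK07, where library 8 stood apart. The ratio of TPM to scaled coverage spanned 4.10-fold over the libraries, the rank 12 spread among 5222 genes with over 100 counts in every library, whose median spread was 1.02-fold. For PPARA the TPM and scaled coverage were equal within 0.1% in every library. The deposited counts follow TPM in each of these 5222 genes, so they are no independent check.

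PPARGC1B encodes PGC1-beta, the coactivator more tied to basal mitochondrial content. The gene (ENSSSCG00000014437, chromosome 2 from 150823373 to 150919376, plus strand) holds the microRNA gene ssc-mir-378-1 on the same strand, which had at most 13 counts in a library. Its TPM was 2.25, 1.41, 1.97, 1.46 and 1.08 in controls, 1.16 and 1.65 in DOCA, and 1.43, 1.44 and 5.36 with JK07. Library 10 was the highest and the other 9 lay within 1.08 to 2.25. The log2 change in CPM was 0.31 ± 0.44 (SE) in DOCA against control (edgeR, adjusted p = 0.635) and 0.40 ± 0.38 in DOCA plus JK07 against control (adjusted p = 1).

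PPARA, the receptor that drives fatty acid oxidation in heart and liver (ENSSSCG00000000006, chromosome 5 from 3300741 to 3364239, minus strand), was steady in the controls at 5.30, 3.87, 4.57, 4.94 and 3.69 TPM. The DOCA libraries had 4.76 and 3.10 TPM, and the JK07 libraries had 20.9, 4.94 and 7.55 TPM. In TPM the JK07 and control ranges overlapped, since library 9 lay under control library 1. In CPM they did not, at 12.7 to 43.5 against 8.88 to 12.7. PPARA was the 1 regulator of 9 whose CPM ranges parted in that comparison, where 3.37% of all genes lay wholly higher and 2.45% wholly lower with JK07. The TPM ranges parted for 0 of 9, against 5.00% of all genes higher and 0.423% lower. The log2 change was 1.08 ± 0.45 (SE) in DOCA plus JK07 against control, with an unadjusted p of 0.0406 and an adjusted p of 1 (edgeR). Without library 8 the log2 change was 0.26.

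PPARD, the ubiquitous PPAR (ENSSSCG00000001539, chromosome 7 from 31222585 to 31295211, plus strand), had 1.41, 0.91, 1.27, 1.09 and 1.42 TPM in the controls. It had 1.14 and 1.44 TPM in DOCA and 1.31, 1.17 and 1.73 with JK07, so all groups overlapped in TPM. In CPM the DOCA libraries (5.15 and 3.61) lay above all controls (2.00 to 3.20) and all JK07 libraries (2.56 to 3.09). The log2 change in CPM was 0.63 ± 0.26 (SE) in DOCA against control and -0.65 ± 0.29 in DOCA plus JK07 against DOCA (edgeR, adjusted p = 0.113 and 0.164). DESeq2 did count PPARD as changed in both comparisons, at 0.72 (adjusted p = 0.00808) and -0.76 (adjusted p = 0.0127), and upper quartile scaling in edgeR did so in the former (0.87, adjusted p = 0.0334). On log2(TPM + 1) the second difference was 0.07, of the opposite sign. Without library 6 the edgeR values were 0.35 (adjusted p = 0.433) and -0.37 (adjusted p = 0.454), and without library 7 they were 0.86 and -0.88 (adjusted p = 0.0509 and 0.071).

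The within-library ratio of PPARA to PPARD, taken as the difference of their log2(TPM + 0.1) values, was 1.80 ± 0.29 in controls (SD, n = 5), 1.52 ± 0.65 in DOCA (n = 2) and 2.65 ± 1.08 with JK07 (n = 3). Library 8 had 3.89 and the other 9 libraries lay between 1.06 and 2.09. The difference of JK07 from control was 0.85, and a two-sided exact permutation test gave p = 0.143. The ratio of PPARGC1A to PPARGC1B was 3.68 ± 0.71, 3.21 ± 1.59 and 3.54 ± 1.54 in the same order of groups. The ratio of ESRRG to ESRRA was -1.53 ± 0.70, -1.11 ± 0.82 and -0.67 ± 0.35, and its difference between JK07 and control was 0.87 (exact permutation p = 0.0714). Over the 9 tests of 3 ratios in 3 comparisons the adjusted p-values ran from 0.6 to 1. The smallest p these exact permutation tests could give was 0.0952 for DOCA against control, 0.2 for DOCA plus JK07 against DOCA and 0.0357 for DOCA plus JK07 against control.

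ESRRA, the ERR that PGC1-alpha induces and works through (ENSSSCG00000013028, chromosome 2 from 7803510 to 7813098, minus strand), overlaps TRMT112 on the opposite strand, which had 28 to 138 counts. Its TPM was 3.19, 4.60, 4.26, 2.63 and 2.46 in controls, 2.19 and 2.23 in DOCA, and 3.55, 2.51 and 6.18 with JK07. Both DOCA libraries lay below all others in TPM, though only just below control library 5 and JK07 library 9. In CPM the ranges overlapped, at 4.04 to 7.76 in controls, 4.08 to 7.19 in DOCA and 4.81 to 7.11 with JK07. The log2 change in CPM was -0.04 ± 0.34 (SE) in DOCA against control, with an approximate 95% interval from -0.70 to 0.63 (edgeR, adjusted p = 0.951).

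ESRRB (ENSSSCG00000002388, chromosome 7 from 99514168 to 99699011, plus strand), an ERR best known from stem cells, was near the lowest level the files list. In controls it had 0, 0.52, 0.32, 0.57 and 0 TPM, and libraries 1 and 5 list nothing below 0.321 and 0.310 TPM. The DOCA libraries had 1.82 and 0.67 TPM and the JK07 libraries 1.26, 0.44 and 1.18. Both DOCA libraries lay above every control in TPM and in CPM. Library 7 lists nothing above 0 under 0.612 TPM, however, so any value listed there would have stood above every control. The log2 change of 2.89 ± 1.48 (SE) in DOCA against control did not pass (edgeR, adjusted p = 0.198), and without library 6 it was 1.35. On log2(TPM + 1) the difference of 0.79 did pass (limma, adjusted p = 0.0357).

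ESRRG, the ERR that keeps the adult heart on oxidative metabolism (ENSSSCG00000010814, chromosome 10 from 6712860 to 6941501, minus strand), is annotated over 229 kb, 34.6% of its RefSeq span. It had 0.48, 3.01, 1.26, 1.06 and 0.71 TPM in the controls, 1.48 and 0.62 in DOCA, and 2.45, 1.86 and 2.90 with JK07. In TPM the JK07 libraries were close together and lay above 4 of 5 controls, but below control library 2. In scaled coverage they were less close, at 1.49, 1.01 and 2.47, and library 10 lay above control library 2 (1.62). The log2 change in CPM was 0.66 ± 0.61 (SE) in DOCA plus JK07 against control and 0.46 ± 0.69 in DOCA against control (edgeR, adjusted p = 1 and 0.655). An unnamed gene on the same strand inside ESRRG had 240 counts on average and up to 529, while ESRRG itself had 32 to 388, and how the authors' counting divided them is not given in the sources used here.

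NRF1 (ENSSSCG00000016566, chromosome 18 from 18998930 to 19142628, minus strand) is the nuclear activator of respiratory chain genes described above. Its controls had 6.15, 4.59, 3.82, 4.26 and 4.10 TPM, the DOCA libraries 1.93 and 1.40, and the JK07 libraries 5.34, 3.83 and 5.01. Neither DOCA library reached the lowest control or the lowest JK07 library. In CPM library 7 stayed far below (5.39), but library 6 at 13.3 was just under the lowest control (14.2) and above JK07 library 10 (12.1). The log2 change in CPM was -0.79 ± 0.33 (SE) in DOCA against control and 0.63 ± 0.35 in DOCA plus JK07 against DOCA (edgeR, adjusted p = 0.123 and 0.267). On log2(TPM + 0.1) the differences were -1.41 and 1.46, and both passed (limma), as they did on scaled coverage (-1.07 and 1.11). All genes had medians of -0.98 and 1.19 on log2(TPM + 0.1), and of -0.93 and 1.13 on scaled coverage. On scaled coverage NRF1 thus lay close to the median gene. The DOCA libraries decide the edgeR values. Without library 6 they were -1.59 (adjusted p = 0.00387) and 1.43 (adjusted p = 0.00816), and without library 7 they were -0.28 (adjusted p = 0.461) and 0.13 (adjusted p = 0.794).

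TFAM (ENSSSCG00000040185, chromosome 14 from 92259403 to 92279731, minus strand) had 1.48, 1.88, 1.48, 1.02 and 0.70 TPM in controls, 0.28 and 0 in DOCA, and 1.08, 0.44 and 0.78 with JK07. Both DOCA libraries are listed below the other 8. Library 7 lists no gene above 0 under 0.612 TPM, which for TFAM is 1.55 CPM. JK07 libraries 9 and 10, at 1.18 and 1.23 CPM, lay under that floor, and control library 5 at 1.58 CPM lay only just above it. The 0 of library 7 thus sets it well below 4 of 5 controls, whose levels were 2.46 to 4.15 CPM, but does not part it from those JK07 libraries. Library 6, at 1.28 CPM, was close to its own floor of 1.19. The fitted log2 changes, -2.23 ± 1.16 (SE) in DOCA against control and 1.22 ± 1.16 in DOCA plus JK07 against DOCA, did not pass (edgeR, adjusted p = 0.203 and 0.506). On log2(TPM + 0.1), where the 0 of library 7 counts as a level, they were -2.79 and 2.08 and passed (limma). The medians of all genes on that scale were -0.98 and 1.19. Without library 6 edgeR called TFAM in both comparisons, but the only DOCA library then left lists it at 0, so no size was read. Without library 7 the values were -1.26 (adjusted p = 0.158) and 0.25 (adjusted p = 0.815).

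Counting over the 9 regulators, the CPM ranges of DOCA and control did not overlap for PPARD and ESRRB (DOCA higher) and for NRF1 and TFAM (DOCA lower), so for 2 genes each way, against 10.2% and 27.6% of all genes. In TPM it was 1 higher (ESRRB) and 3 lower (ESRRA, NRF1 and TFAM), against 3.57% and 36.9%. The parting of ESRRB rests on library 6, since the smallest value library 7 could list lies above the controls. Between DOCA plus JK07 and DOCA the CPM ranges of 1 regulator parted (PPARD, lower with JK07, against 9.82% of all genes lower and 30.3% higher), and in TPM those of 5 (PPARA, ESRRA, ESRRG, NRF1 and TFAM, all higher with JK07, against 43.5% higher and 1.59% lower). For TFAM this takes the 0 of library 7 as a level, though JK07 library 9 at 0.44 TPM lies under the 0.612 TPM that library 7 could list. These 2 comparisons share the DOCA libraries and so are not independent. In bulk nuclear RNA, fewer cells of a type and less RNA per cell cannot be told apart.

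The partners of the regulators were read from a list of 33 genes, the RXR receptors, coactivators, corepressors, AMPK subunits, sirtuins and upstream factors, of which 32 were tested. In DOCA against control 4 of 32 rose and 11 fell, against 5.73% and 19.7% of all genes, with a median log2 change of -0.75 against -0.63. These counts moved with the processing: 9 rose with upper quartile scaling, 7 with relative log expression scaling, 8 with DESeq2, and 1 on either TPM scale, on scaled coverage or without library 6. With voom 0 rose and 2 fell, and on log2(TPM + 0.1) and scaled coverage 17 fell. All genes moved too. Instead of 988, 1523 rose with upper quartile scaling, 1195 with relative log expression scaling, 1645 with DESeq2 and 258 on log2(TPM + 1). Instead of 3403, 94 fell with voom, 5681 on log2(TPM + 0.1) and 5413 on scaled coverage. PRKAG2, a regulatory AMPK subunit, rose by 2.83 ± 0.56 on the log2 scale, from 19.9 ± 6.75 CPM in controls (SD, n = 5) to 220 and 62.4 in the DOCA libraries (edgeR, adjusted p = 0.00519). The deacetylase HDAC3 rose by 0.71 ± 0.18, to 8.55 and 6.86 CPM from 4.71 ± 0.37 (adjusted p = 0.0204). NCOA1, a steroid receptor coactivator, fell by 2.38 ± 0.21, to 2.00 and 3.01 CPM from a control range of 11.6 to 14.3 (adjusted p = 4.72e-05).

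GABPB1, a subunit of the respiratory gene activator GABP, and SIRT3, the mitochondrial deacetylase that PGC1-alpha induces, were listed at 0 in both DOCA libraries. Their controls had 3.14 ± 0.26 and 2.55 ± 0.99 CPM (SD, n = 5). Set against the lowest level the DOCA libraries list for each gene, GABPB1 was at least 1.55-fold and SIRT3 at least 2.30-fold lower in DOCA. The 3 JK07 libraries listed them at 1.90 to 2.64 and 2.66 to 2.92 CPM. By the same measure the JK07 means were at least 1.10-fold and 2.53-fold above DOCA. For GABPB1 the DOCA floor thus lies among the JK07 levels. Library 10, at 1.90 CPM, lies under the mean DOCA floor and is not parted from DOCA. With JK07 against DOCA 11 of 32 partners were higher and 0 lower, against 14.7% and 2.25% of all genes, among them NCOA1 at 11.0, 11.4 and 11.6 CPM (2.18 ± 0.22, edgeR adjusted p = 9.42e-05). GABPB1, SIRT3 and RXRG, listed at 0 in both DOCA libraries, also count among the 11. The 0 lower became 4 with upper quartile scaling, with relative log expression scaling or without library 7, and 7 with DESeq2. The 11 higher became 0 with voom, 4 in the fit of those groups alone and 20 on either TPM scale. Over all genes the 2542 higher became 1 with voom and 2255 in the fit of those groups alone. They became 5536 on log2(TPM + 1) and 6031 on log2(TPM + 0.1). In DOCA against control, without library 6 neither PRKAG2 (1.65, adjusted p = 0.0806) nor HDAC3 (0.54, adjusted p = 0.0998) passed.

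Of 32 listed PPAR target genes of fatty acid use, 28 were tested. In DOCA against control 1 rose (3.57%) and 7 fell (25.0%), where 5.73% and 19.7% of all genes did, with a median log2 change of -0.73 against -0.63 over all genes. DECR1, an auxiliary enzyme for unsaturated fatty acids, fell by 2.62 ± 0.26, from 9.56 ± 1.46 CPM in controls (SD, n = 5) to 1.87 and 1.24 (edgeR, adjusted p = 8.47e-05). ACADL, the long-chain acyl-CoA dehydrogenase, fell by 1.42 ± 0.27 (adjusted p = 0.00426). CPT1B, the muscle gate of mitochondrial fatty acid import, was the 1 gene that rose, by 1.24 ± 0.39, to 96.3 and 28.8 CPM from 26.4 ± 6.47 (adjusted p = 0.0442). That call rests on library 6, without which its log2 change was 0.12 (adjusted p = 0.798).

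Of the 28 PPAR targets, 7 (25.0%) were higher and 0 lower in DOCA plus JK07 than in DOCA, where 14.7% and 2.25% of all genes were, with a median of 0.89 against 0.55. DECR1 stood at 9.25, 8.03 and 7.12 CPM in libraries 8 to 10 (2.38 ± 0.27, edgeR adjusted p = 0.000187). LPL, the lipase that frees fatty acids from circulating triglyceride, had 37.7, 22.6 and 16.3 CPM with JK07 against 4.20 and 1.57 in DOCA and 16.6 ± 4.74 in controls (3.14 ± 0.55, adjusted p = 0.00307). Beside these genes the 7 measured adipocyte markers, some of which are PPAR targets in fat, summed to 52.9 to 72.8 CPM in DOCA, 17.4 to 29.6 in controls and 15.7 to 30.1 with JK07. Of the 4 tested, FASN alone passed, with log2 changes of 1.49 in DOCA against control and -1.55 in DOCA plus JK07 against DOCA (edgeR, adjusted p = 0.00706 and 0.0138). ADIPOQ, LEP and PCK1 among them were at 0 in every library, and PLIN1 was at 0 in every JK07 library. The part of these markers in the result was not tested.

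The list of ERR target genes of oxidative metabolism had 40 genes, of which 39 were tested. In DOCA against control 0 rose and 21 fell, 53.8% of the list against 19.7% of all genes, with a median of -1.08 against -0.63. COX6C, a subunit of cytochrome c oxidase, fell by 2.23 ± 0.31 to 1.43 and 1.47 CPM from 6.80 ± 1.51 in controls (SD, n = 5; edgeR, adjusted p = 0.000587). CS, citrate synthase, fell by 1.44 ± 0.21 to 9.93 and 9.54 CPM from 26.5 ± 4.67 (adjusted p = 0.000726). NDUFA4, another oxidase-associated subunit, fell by 2.21 ± 0.32 (adjusted p = 0.000826). Against DOCA, 11 of the 39 (28.2%) were higher and 0 lower with JK07, where 14.7% and 2.25% of all genes were, with a median of 0.84 against 0.55. CS had 20.3, 19.0 and 23.7 CPM with JK07 (1.11 ± 0.22, adjusted p = 0.00561), COX6C was 1.73 ± 0.31 and MDH1, cytosolic malate dehydrogenase, 2.23 ± 0.46 higher (adjusted p = 0.0037 and 0.00814). Without library 8, and likewise without library 10, 6 ERR targets counted as higher.

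**Figure D3:**
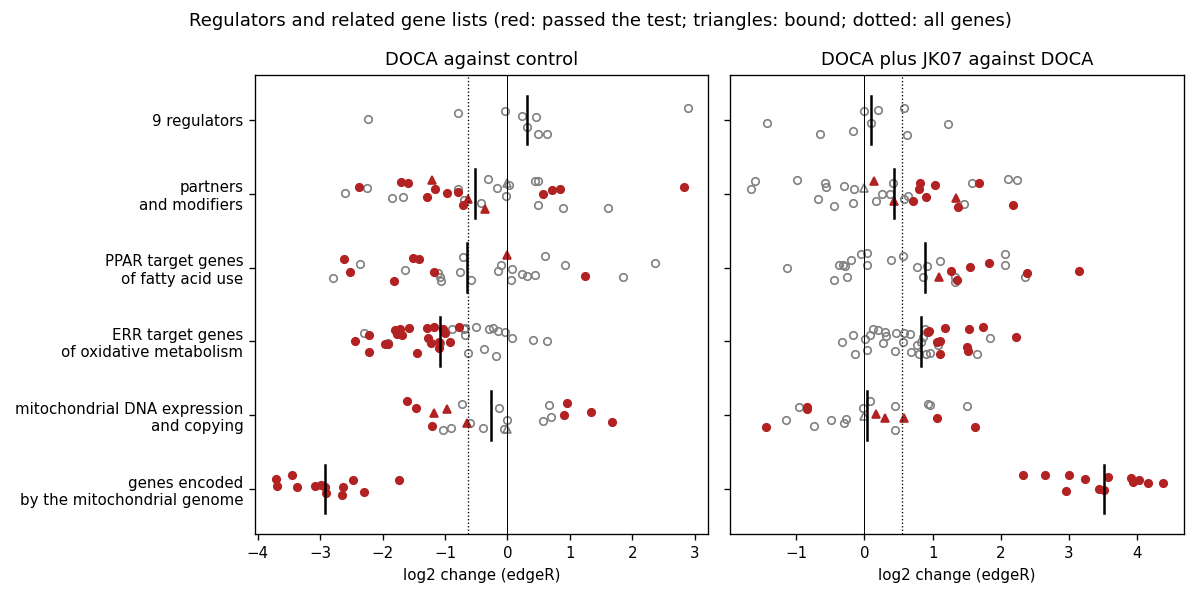
Log2 changes (x axis, edgeR) of the 9 regulators and of the genes in 5 related lists (rows) in DOCA against control (left) and DOCA plus JK07 against DOCA (right). Filled red symbols passed the test, open ones did not, triangles are genes listed at 0 in a whole group placed at their bound, short bars are list medians with those bounds and the dotted line is the fitted median of all genes. The regulators' median is 0.31 on the left while the ERR targets' is -1.08. All 13 genes of the mitochondrial genome passed on both sides, where 25.5% (left) and 17.0% (right) of all genes did. These 13 are not independent of each other.

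The list of mitochondrial DNA genes held genes that copy and express this DNA, which TFAM serves. It also held the protein import genes TOMM20, TOMM70 and TIMM17A. The listed genes went both ways. Of 22 tested, 4 rose and 6 fell in DOCA against control, where 5.73% and 19.7% of all genes did. The median was -0.49 against -0.63. TOMM70 was among the 6 that fell. With voom 1 rose and 0 fell, and on log2(TPM + 0.1) 1 rose and 10 fell. Over all genes 67 rose and 94 fell with voom, and 221 rose and 5681 fell on log2(TPM + 0.1). The mitochondrial DNA polymerase POLG rose by 0.96 ± 0.18 to 23.7 and 23.5 CPM from 12.1 ± 1.88 in controls (SD, n = 5; edgeR, adjusted p = 0.00348). MTERF4, which acts in mitochondrial ribosome assembly, rose by 0.91 ± 0.15 to 8.42 and 8.20 CPM, and ELAC2, which trims mitochondrial tRNA ends, by 1.68 ± 0.27 to 14.2 and 6.73 CPM (adjusted p = 0.00183 and 0.00146). These 3 also separated JK07 from DOCA, being lower with JK07 at -0.85 ± 0.20, -0.85 ± 0.17 and -1.45 ± 0.31 (adjusted p = 0.0159, 0.00667 and 0.00932). LRPPRC, which stabilises mitochondrial messenger RNA, fell by 1.61 ± 0.26 in DOCA (adjusted p = 0.00145).

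PNPT1, a mitochondrial RNA nuclease, and MTERF1, a terminator of mitochondrial transcription, were listed at 0 in both DOCA libraries, which is at least 1.56-fold and 1.96-fold lower than control. Against DOCA, 5 of the 22 mitochondrial DNA genes were higher and 3 lower with JK07, where 14.7% and 2.25% of all genes were. PNPT1, MTERF1 and SLIRP, all listed at 0 in DOCA, count among these 5 and among those that fell in DOCA. With voom 0 were higher and 0 lower, where 1 and 4 of all genes were. In the fit of those groups alone they were 3 and 0, against 2255 and 112 of all genes. On log2(TPM + 0.1) they were 9 and 0, against 6031 and 53. Without library 7 they were 3 and 5. Among the 5, MTERF3, another factor of mitochondrial transcription and translation, was 1.62 ± 0.36 higher (edgeR, adjusted p = 0.0128), and without library 7 it did not pass (adjusted p = 0.0543).

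The 13 protein genes of the mitochondrial genome itself all fell in DOCA against control, with a median of -2.93. All 13 were higher in DOCA plus JK07 against DOCA, with a median of 3.51. Of all genes 19.7% fell in the former comparison, with a median of -0.63, and 14.7% were higher in the latter, with a median of 0.55. COX2 had 5.99 and 3.15 CPM in DOCA, 49.9 ± 17.1 in controls (SD, n = 5) and 51.5, 53.1 and 105 with JK07 (edgeR, adjusted p = 0.00125 and 0.000838). ND1 and ND4L, subunits of complex I, fell by 3.70 ± 0.61 and 2.65 ± 0.44 (adjusted p = 0.00184 and 0.00179). The RNA was labelled nuclear, whereas these genes lie in mitochondria. The 13 genes share the same genome and each library's mitochondrial material, so they are not 13 independent results. As a share of counts off the ribosomal scaffolds, mitochondrial genes made up 2.58% in library 6, 0.488% in library 7 and 3.69% to 8.26% in the remaining 8, and how much mitochondrial material the samples carried was not tested. With limma voom and quality weights 3 of the 13 fell and 0 were higher with JK07, where 94 and 1 of all genes did.

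In DOCA plus JK07 against control 0 genes of any of the 5 lists passed (edgeR), and the median log2 changes were -0.04 for the partners, 0.15 for the PPAR targets, -0.33 for the ERR targets, -0.13 for the mitochondrial DNA genes and 0.58 for the mitochondrial genome. Over all genes this comparison had 803 at an unadjusted p under 0.05, and DESeq2 called 115 and limma voom 8. The list counts against DOCA rest on a shared estimate of spread. With limma voom and library quality weights 0 PPAR targets and 1 ERR target fell in DOCA against control, and 0 of either were higher with JK07 than in DOCA. Of all genes 94 fell and 1 was higher in the same comparisons. With genes listed at 0 in a whole group at their bound, the medians in DOCA against control were -0.52 for the partners, -0.65 for the PPAR targets, -0.26 for the mitochondrial DNA genes and 0 for all genes. The fitted median of all genes is thus partly set by genes at 0.

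Across the 8 control and JK07 libraries, centred on each group's mean, the 9 did not all move together. Over the 36 pairs Pearson's r of log2(CPM + 1) ran from -0.80 (PPARD and ESRRG) to 0.91 (PPARGC1A and NRF1). The latter pair were both highest among the controls in library 1. ESRRA, ESRRB, ESRRG and TFAM were positively related to each other (r from 0.45 to 0.71). PPARD ran against ESRRB (-0.72), ESRRG and TFAM (-0.51), and less so against ESRRA (-0.36). The genes most like PPARGC1A among 9843 candidates were KLHL15, CLIC4 and PTPN12 (r from 0.98 to 0.99). For PPARA they were DIAPH2, GPAM and UBE2R2 (r from 0.96 to 0.99), and for PPARGC1B they were MAP7D1, PRKACA and RRAD (0.97 to 0.99). PPARD was closest to GABBR1, TMEM184B and TAOK2, ESRRA to SLC29A1, ENOX1 and XPO7, ESRRB to GSAP, DENND10 and HERC2, and ESRRG to CETN3, GPATCH8 and ZNF891. NRF1 was closest to PNO1, DCUN1D4 and ESCO1, and TFAM to BCL2L13, DMD and MAP1LC3B. With 8 libraries and that many candidates such values describe these libraries only, and the libraries share their depth and scaling.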

How the data were processed

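Nuclear RNA libraries of sorted cardiomyocytes (5 control, 2 DOCA, 3 DOCA plus JK07) were prepared with TRIzol and the TruSeq RNA kit, per the labels' protocols. The submitters' processing notes name StringTie, SAMtools and edgeR, and the build Sscrofa11.1. Versions, aligner, annotation and strand setting are not given in the sources used here. The authors deposited, per the file headers, TPM and a coverage signal for 35670 gene identifiers in each library. The authors' deposited table of estimated counts has no gene column; with identifiers sorted, 99.998% of its values were 0 in both tables or in neither, against 62.6% after a shift of 1 line. Among 5222 genes with over 100 counts in every library, the ratio of count to TPM was constant over libraries within 2% in 100%, once each library's own factor was removed, so counts and TPM carry the same information. How coverage was averaged over transcripts was not given.

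Counts, whole as deposited, were tested with edgeR 4.0.16 in R 4.3.3 (filterByExpr, TMM, quasi-likelihood F test, group as only term, all 10 libraries), adjusted by Benjamini-Hochberg over 17251 genes at 0.05. SE is the absolute log2 change divided by the square root of F. The DOCA group has 2 libraries, so its tests lean on the spread of the others. Ratios of 2 regulators used log2(TPM + 0.1) and exact two-sided permutation tests (scipy 1.17.1). Scaled coverage is coverage times the library's median ratio of TPM to coverage, an alternative chosen after seeing the data. Other alternatives were upper quartile and relative log expression scaling, removal of ribosomal scaffolds and mitochondrial genes, DESeq2 1.42.0, limma 3.58.1 (voom with quality weights, log2(TPM + 1), log2(TPM + 0.1)), other filters, fits of only the groups compared, and leaving out each library. The fitting script was tested on simulated data.

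The 9 regulators and the gene lists were chosen with earlier results of these data known. Named were all 9 regulators, the 3 members of each pathway list and direction with the smallest adjusted p, and the 3 genes of at least 1 CPM most correlated with each regulator. Some genes that this rule names are not reported here. PERM1, CD36, ACOT2, ATP5F1B and TTN matched no identifier by symbol.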

Additional observations from a re-analysis of the deposited data

Results flagged for a closer look

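Of 9 control groups examined, 1 for each regulator's TPM, 1 held a sample far from the others: PPARGC1A in control library 1 had 54.3 TPM, the nearest control had 21.7, and the gap was 0.799 of the group's range, above Dixon's critical value for 5 samples. Chance alone gives about 1 such sample in 20 groups. Scaled coverage of PPARGC1A in that library was 6.93, inside the control range of 4.55 to 6.99. Without it the log2 change of PPARGC1A in DOCA against control was 0.76. The groups of 2 and 3 libraries are too small for this comparison.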

How the results depend on the processing

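Of 576 log2 changes of the 9 regulators recomputed under alternatives, 482 kept their direction and their side of the threshold. Another 19 came to pass the test in the same direction and 75 changed sign without passing. The cause of these changes was not tested. No call could be lost, since none of the 9 had passed at the start. All-gene medians in DOCA against control and in DOCA plus JK07 against DOCA moved by 0.24 and -0.24 with upper quartile scaling, by -0.18 and 0.26 with voom, by 0.24 and -0.03 on log2(TPM + 1) and by -0.35 and 0.64 on log2(TPM + 0.1). The share of higher genes among those called in DOCA against control was 22.5%, 34.7% with upper quartile scaling and 4.97% on log2(TPM + 1); in DOCA plus JK07 against DOCA it was 86.8%, 73.6% and 98.4%.

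In DOCA against control, 161 genes passed with voom, 6272 with DESeq2, 5191 on log2(TPM + 1), 5902 on log2(TPM + 0.1) and 5638 on scaled coverage, instead of 4391. With upper quartile scaling 4391 passed as well. Of the regulators 1 passed with upper quartile scaling and 1 with DESeq2 (PPARD in each), 3 on log2(TPM + 1) (ESRRB, NRF1 and TFAM), and 2 on log2(TPM + 0.1) and 2 on scaled coverage (NRF1 and TFAM). Instead of 7 PPAR targets, 0 fell with voom, 12 on log2(TPM + 1), 14 on log2(TPM + 0.1) and 14 on scaled coverage, and 1 ERR target fell with voom instead of 21. Over all genes 94 fell with voom, 4933 on log2(TPM + 1), 5681 on log2(TPM + 0.1) and 5413 on scaled coverage, instead of 3403. ESRRA changed sign to 0.19 with upper quartile scaling, 0.034 with relative log expression scaling, 0.0037 without ribosomal and mitochondrial genes, 0.035 with DESeq2 and 0.030 with voom. On log2(TPM + 1) PPARGC1A was -0.61, PPARGC1B -0.12, PPARA -0.16 and ESRRG -0.11, and on log2(TPM + 0.1) these were -0.65, -0.18, -0.20 and -0.14. On scaled coverage PPARGC1B was -0.18 and PPARA -0.20.

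Between DOCA plus JK07 and DOCA, 5045 genes passed with DESeq2, 5 with voom, 5626 on log2(TPM + 1), 6084 on log2(TPM + 0.1) and 5822 on scaled coverage, instead of 2930. Regulators passed with DESeq2 (1, PPARD), on log2(TPM + 1) (1, NRF1), and on log2(TPM + 0.1) and scaled coverage (2 each, NRF1 and TFAM). Instead of 7 PPAR targets, 0 were higher with voom, 16, 17 and 18 on log2(TPM + 1), log2(TPM + 0.1) and scaled coverage, and 4 in the fit of those groups alone. Instead of 11 ERR targets, 7 were higher with upper quartile scaling, 0 with voom, 27, 29 and 30 on the same 3 scales, and 2 in the fit of those groups alone. PPARGC1B was -0.14 with upper quartile scaling, -0.018 with relative log expression, -0.019 with DESeq2 and -0.24 with voom. ESRRA was -0.23, -0.11, -0.11 and -0.10 under the same 4, -0.043 without ribosomal and mitochondrial genes, -0.016 with the stricter filter and -0.047 in the fit of those groups alone. ESRRG was -0.014 with upper quartile scaling. PPARGC1A was 0.28 with voom, and 0.93, 0.99 and 0.43 on the 3 scales, where PPARD was 0.068, 0.11 and 0.010.

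Between DOCA plus JK07 and control 115 genes passed with DESeq2 and 8 with voom. On the 3 scales PPARD was 0.12, 0.19 and 0.12, ESRRA 0.16, 0.19 and 0.19, and NRF1 0.041, 0.049 and 0.046. Scaled coverage turned the ratio of PPARGC1A to PPARGC1B to 0.30, -0.23 and 0.069 in the 3 comparisons.

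Leaving out each library in turn (a lone DOCA library is then assumed to vary like the other groups), DOCA against control gave 0 to 2 regulators, 6 to 11 PPAR targets that fell, and log2 changes from -1.62 to 1.01 for PPARGC1A, -0.42 to 1.04 for PPARA, -0.51 to 0.31 for ESRRA, -0.93 to 1.15 for ESRRG, 0.35 to 0.86 for PPARD and -1.59 to -0.28 for NRF1. DOCA plus JK07 against DOCA gave 2277 to 4455 genes (the latter without library 7), 0 to 2 regulators, 5 to 12 PPAR and 6 to 14 ERR targets that were higher, and log2 changes of -0.94 to 1.69 for PPARGC1A, -0.56 to 0.33 for PPARGC1B, -0.28 to 1.5 for PPARA, -0.34 to 0.47 for ESRRA, -2.16 to 0.11 for ESRRB -0.49 to 1.59 for ESRRG, -0.88 to -0.37 for PPARD and 0.13 to 1.43 for NRF1. DOCA plus JK07 against control gave -0.33 to 0.56 for PPARGC1A, -0.20 to 0.69 for PPARGC1B, -0.12 to 0.044 for PPARD and -0.24 to 0.094 for ESRRA. The ratio of PPARGC1A to PPARGC1B ran from -1.60 to 0.65, -0.80 to 1.45 and -0.82 to 0.69 in the 3 comparisons, that of PPARA to PPARD from -0.74 to 0.17 in DOCA against control, and that of ESRRG to ESRRA from -0.15 to 1.00 and -0.13 to 1.02 in the comparisons with DOCA. The 2 regulators were NRF1 and TFAM without library 6, which also gave the 11 and 12 PPAR targets. No paired analysis was possible because the labels number the libraries 1 to 10 and no number is shared between groups. Genes near a library's smallest listed TPM, above all in library 7, cannot be told from 0 at this depth.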
